A study of Mus musculus with 2 samples.

Results

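Marginal zone and B1 cells are the innate-like subsets of mouse B cells, and the RNA levels of 10 genes that mark them are described here in cultured B cells with and without Nedd4, a ubiquitin ligase of the HECT class. The genes were chosen by name (Cd24a, Cd36, Cd38, Cd9, Plac8, Dtx1, Bhlhe41, Notch2, Cd5 and S1pr3), with earlier results of these data known. All 10 were found among the 23288 genes of both libraries. In all, 1 library was made from Nedd4+/+ and 1 from Nedd4-/- splenic B cells, taken from mice whose blood system was rebuilt from fetal liver cells of that genotype. Both had the strain background B6:129-backcrossed to B6, and both cultures ran for 72 hours with LPS, which activates B cells, and IL4, the cytokine that directs switching to IgG1. The labels do not give the mice's age, whether host B cells remained, how the B cells were purified or whether animals were pooled. Since each genotype is a single library, differences between genotypes were described without tests, and how far they would repeat is unknown. The intervals are 95% intervals on read pairs estimated from the deposited levels and cover counting error only. Those of levels and ratios use formulas that are exact for whole counts, which the estimated pairs need not be. Those of differences between ratios are approximate by their formula too. Levels given as with Nedd4 are those of the Nedd4+/+ library, and levels without are those of the Nedd4-/- library. Bulk RNA cannot tell fewer cells of a type from less RNA per cell, and this holds for every value below.

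Marginal zone B cells sit at the edge of the splenic follicle and respond quickly to blood-borne antigen. They form when Notch2 on an immature B cell meets the ligand Delta-like 1 on splenic stroma, upon which the receptor is cut and its inner part enters the nucleus, binds RBPJ and switches on genes such as Dtx1. They are held at the follicle's edge by receptors for sphingosine 1-phosphate, a blood lipid, among them S1pr1 and S1pr3, and carry the tetraspanin CD9 and the lipid receptor CD36. B1 cells live mostly in the body cavities, secrete natural antibody and are known by CD5 and by the transcription factor Bhlhe41, which supports their self-renewal.

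Of the 10 genes, 9 had a mean of 1 RPKM or more over the libraries (RPKM counts reads relative to transcript length in kilobases and to the library's mapped reads), and 8 of these 9 were lower in the Nedd4-/- library. Most of all genes of that level were lower there too, so this count alone does not set the markers apart. Cd24a and Cd38 were furthest apart, and S1pr3 alone of the 9 was higher. Differences are given as log2((Nedd4-/- + 1)/(Nedd4+/+ + 1)) in RPKM, a scale that understates differences of low genes. Of the 9 genes 2, Cd24a and Cd38, were at least 2-fold lower, where 1.15% of all 9405 genes of that level were, and 0 were 2-fold or more higher (0.138% of all genes). The libraries differed as a whole, with a median log2 ratio of -0.31 and a 95th percentile of 0.06 over those 9405 genes. Values less that median are therefore given below as relative. Relative to it, the same 2 genes were at least 2-fold lower (0.223% of all genes), 5 (Cd24a, Cd38, Cd36, Dtx1 and Plac8) were at least 1.5-fold lower (2.05%) and 8 lay below it (50.0%). Relative to it, 0 were higher by 2-fold (0.276%) or by 1.5-fold (1.23%). The median of the 9 genes was -0.90, or -0.59 relative. Without the added 1 RPKM, 5 of the 9 were at least 2-fold lower (2.79% of all genes).

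**Figure D1:**
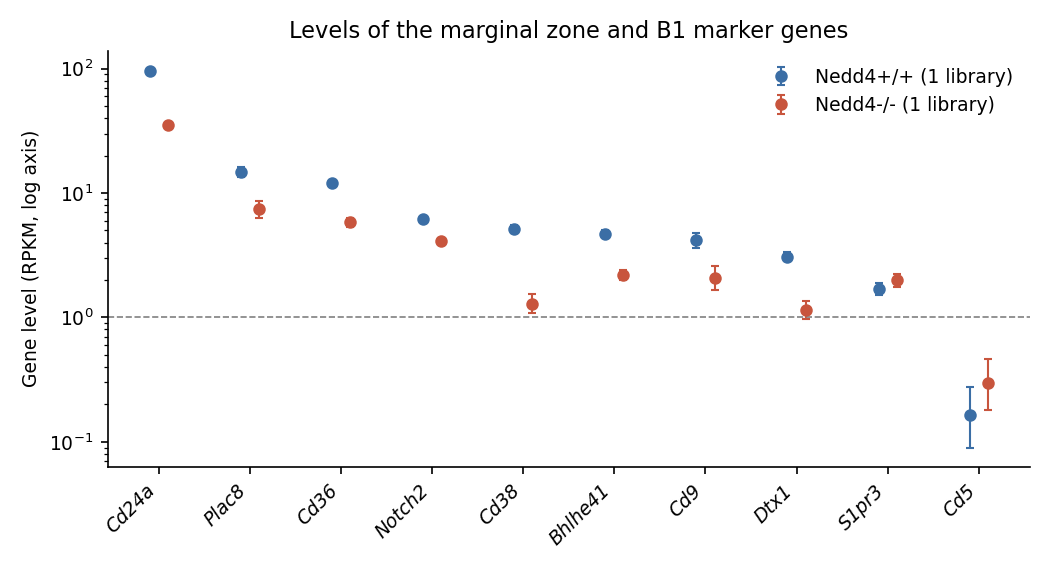
Gene level in RPKM (vertical log axis) of the 10 marker genes in the Nedd4+/+ library (blue) and the Nedd4-/- library (red), with bars for the 95% counting interval and a dashed line at 1 RPKM. Cd24a was the highest gene in both libraries and Cd5 the lowest, and the red point lies under the blue one for all genes but S1pr3 and Cd5.

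The median ratio differed by level, so the genes were also set beside genes of like abundance. Among the 4702 genes with a mean of 1 to 5 RPKM the median log2 ratio was -0.25. Of the 5 markers in that range Cd38 and Dtx1 were at least 1.5-fold lower relative to the overall median, which 0.915% of the range were, and 1, Cd38, was 2-fold lower as deposited (0.617%). Among the 3615 genes of 5 to 20 RPKM the median was -0.37, and of the 3 markers there Cd36 and Plac8 passed that rule (2.30% of the range), and 0 were 2-fold lower (1.27%). Cd24a was the 1 marker at 20 RPKM or more, where the median of 1088 genes was -0.41 and 6.16% passed. It was also 2-fold lower, as 3.03% of that range were. Set against the median of their own range, 8 of the 9 markers again lay below it. The exception was again S1pr3, at the 96.7th percentile of its range.

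The receptor Notch2 differed least among the lower markers. Its level (chromosome 3, NM_010928) was 6.19 RPKM with Nedd4 and 4.13 RPKM without, which is -0.49 in log2 and -0.17 relative. Its ratio without pseudocount was -0.58 (counting interval -0.68 to -0.49), where the median of all genes on that scale was -0.39. At the 20.7th percentile of all ratios, it lay inside the bulk of the genes. Gm42819 and Gm42820 overlap Notch2 on the same strand in the GRCm38 annotation and could share its reads. Notch1, the receptor known for T cell fate, was at 5.37 and 3.74 RPKM. The log2 ratio of Notch2 less that of Notch1 was -0.06, with a counting interval of -0.21 to 0.08, so the receptors were not told apart by their difference between the libraries.

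Dtx1, a RING-type ubiquitin ligase of the Deltex family and a known Notch target, was 1 of the lower markers. Its level (chromosome 5) was 3.09 RPKM with Nedd4 and 1.16 RPKM without, which is -0.92 in log2 and -0.61 relative. Counting intervals of the levels, 2.83 to 3.36 RPKM and 0.974 to 1.36 RPKM, did not overlap. The other Deltex genes differed less. Dtx2 was at 2.12 and 1.51 RPKM, Dtx3 at 2.12 and 2.10 RPKM and Dtx3l at 7.17 and 5.08 RPKM. Without pseudocount the log2 ratio of Dtx1 lay below that of Dtx2 by a difference of -0.92 (counting interval -1.34 to -0.50), of Dtx3 by -1.40 (-1.83 to -0.97) and of Dtx3l by -0.92 (-1.21 to -0.63).

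No further Notch pathway gene passed the 1.5-fold rule that Dtx1 passed, and of all genes only 2.05% did. Over 55 further genes of the pathway 36 had a mean of 1 RPKM or more. Of these, 0 were 2-fold lower or higher, as 1.15% and 0.138% of all genes were. At such shares 0 of 36 is near what all genes show. The log2 ratios of the 36 ran from -0.75 to -0.01 with a median of -0.37. Ligands and other receptors were low, and Notch1 was the only 1 of 8 at 1 RPKM. Of 13 genes that cut or glycosylate the receptor 7 lay below the median of all genes. They included Lfng, the Fringe glycosyltransferase that strengthens the response to Delta-like 1, at 7.86 and 4.64 RPKM (-0.65). Adam10, the protease of the first cut after ligand binding, was at 7.22 and 7.08 RPKM (-0.03) and lay above the median. Of 9 genes of the nuclear complex 5 lay below, with the cofactor gene Snw1 at -0.49. Of 9 genes of turnover 6 lay below, among them the ligase genes Mib1 (-0.60) and Itch (-0.59), the second a relative of Nedd4. All 4 Notch target genes at 1 RPKM lay below the median, by little except for Il2ra. This gene, for the alpha chain of the IL-2 receptor, was at 4.09 and 2.03 RPKM (-0.75, relative -0.44). The other 6 targets, Hes1, Hes5, Hey1, Hey2, Heyl and Nrarp, had a mean under 1 RPKM and give no comparison. The target list was thus read on those 4 genes alone.

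S1pr3, the sphingosine 1-phosphate receptor of marginal zone cells, went the other way. Its level (chromosome 13) was 1.70 RPKM with Nedd4 and 1.99 RPKM without, which is 0.15 in log2 and 0.46 relative. The counting intervals of the levels, 1.51 to 1.90 and 1.76 to 2.24 RPKM, overlapped, and the ratio without pseudocount, 0.23, had an interval of -0.01 to 0.47. Among all 9405 ratios it stood at the 97.6th percentile. Of the related receptors, S1pr1, which is needed to leave the spleen and lymph nodes, was at 1.97 and 1.89 RPKM, and S1pr4 at 8.0 and 5.67 RPKM. The log2 ratio of S1pr3 exceeded that of S1pr4 by 0.73 (counting interval 0.44 to 1.02), and its difference from S1pr1 was 0.29 (-0.08 to 0.65). Genes under 0.5 RPKM had a median level of 0.117 RPKM with Nedd4 and 0.244 RPKM without, while the S1pr3 levels differed by 0.291 RPKM. With these medians subtracted from each library, the log2 ratio of S1pr3 was 0.09. The noncoding gene Gm32834 overlaps S1pr3 on the opposite strand in the GRCm38 annotation, and with the strand setting not given, reads of the pair cannot be told apart.

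**Figure D2:**
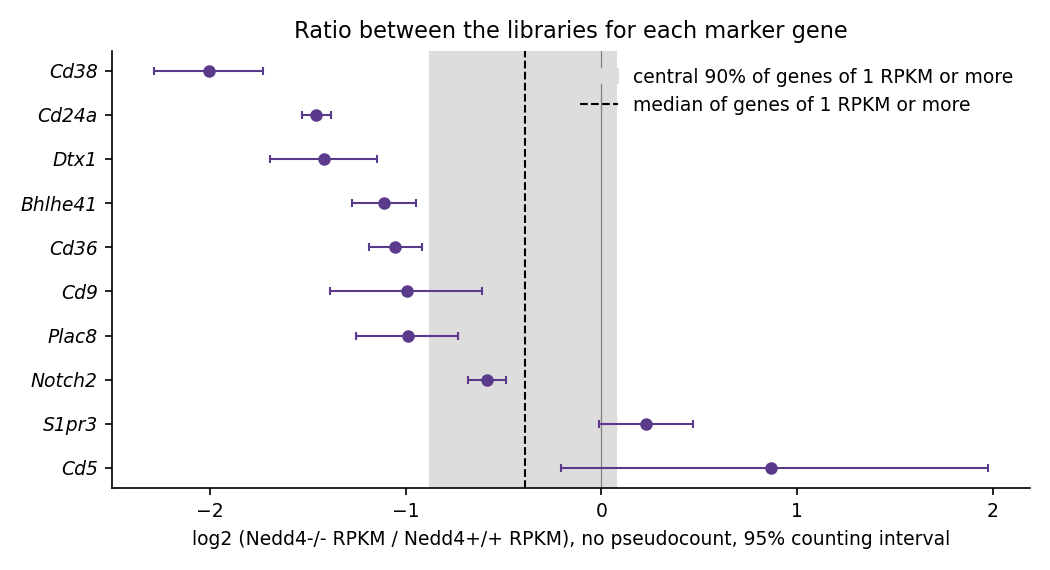
Log2 ratio of Nedd4-/- to Nedd4+/+ RPKM without pseudocount (horizontal axis) for each of the 10 marker genes (vertical axis), with 95% counting intervals, the median (dashed) and the central 90% (grey) of the 9405 genes. The intervals of Cd38, Cd24a, Dtx1, Bhlhe41 and Cd36 lie wholly left of the grey band, those of Cd9 and Plac8 reach into it, and Notch2 lies inside it.

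Among the surface proteins, Cd38 had the widest ratio. Cd38, on chromosome 5, encodes an enzyme that breaks down NAD at the cell surface, which mouse marginal zone and resting B cells carry and germinal center B cells lose. Its level was 5.18 RPKM with Nedd4 (4.80 to 5.58) and 1.29 RPKM without (1.08 to 1.53), so the intervals lay apart. The log2 ratio was -1.43 and the relative value -1.12, and without pseudocount the level was 4.01-fold lower (3.32 to 4.88). Among the 9405 genes its log2 ratio was the 13th lowest. By level it was the 5th of the 10 markers in the Nedd4+/+ library and the 8th in the Nedd4-/- library. Its relative Bst1, which has the same enzyme activity, was under 0.2 RPKM in both libraries and gives no comparison. Noncoding genes on either strand (Gm16014 and Gm16015) overlap Cd38 and could share its reads.

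Cd24a, on chromosome 10, was the most abundant marker. It encodes a small, heavily glycosylated surface protein that is high on immature and transitional B cells and declines with maturation. Its level was 95.9 RPKM with Nedd4 (93.7 to 98.2) and 35.0 RPKM without (33.4 to 36.6), the 197th and the 455th highest of all genes. The log2 ratio was -1.43, the next after Cd38 in the order of all genes, and without pseudocount the level was 2.74-fold lower (2.61 to 2.89). Processed pseudogenes with 92.3% and 96.8% identity over 259 and 218 bases of the Cd24a transcript (Gm15352 and Gm6212) could share reads with it, and how reads with several matches were treated is not given in the sources used here.

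Cd36 and Cd9 were also lower. Cd36, the class B scavenger receptor for fatty acids and oxidised lipoproteins, was at 12.0 RPKM with Nedd4 and 5.80 RPKM without (log2 ratio -0.94, relative -0.63). Cd9, the tetraspanin used to tell marginal zone, B1 and plasma cells from follicular cells, was at 4.16 RPKM (3.62 to 4.76) and 2.09 RPKM (1.65 to 2.61), a log2 ratio of -0.74 and a relative value of -0.43. Scarb1, the scavenger receptor most like Cd36, was at 6.60 and 4.70 RPKM, and the log2 ratio of Cd36 lay below its own by a difference of -0.56 (counting interval -0.80 to -0.33). Several related tetraspanins were compared with Cd9. Cd81, a widely expressed tetraspanin, was at 46.4 and 25.9 RPKM and Cd53 at 60.2 and 35.1 RPKM. Cd82 was at 27.4 and 24.0 RPKM and Cd37 at 17.5 and 12.6 RPKM. The ratio of Cd9 was not told apart from that of Cd81 (difference -0.15, interval -0.54 to 0.23) or Cd53 (-0.21, -0.60 to 0.17). It lay below that of Cd82 (-0.80, -1.19 to -0.42) and that of Cd37 (-0.52, -0.92 to -0.11). The processed pseudogene Cd9-ps is 91.1% identical to 665 bases of Cd9, which leaves part of its reads uncertain.

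Plac8, on chromosome 5, and Bhlhe41, on chromosome 6, were lower to a like degree. Plac8, a small cysteine-rich protein of innate-like lymphocytes and myeloid cells, was at 14.7 RPKM with Nedd4 and 7.38 RPKM without (-0.90, relative -0.59). Bhlhe41, a repressor of the basic helix-loop-helix family that also acts in the circadian clock, was at 4.73 and 2.19 RPKM (-0.84, relative -0.53). Its paralog Bhlhe40 was at 1.78 and 0.936 RPKM. Without pseudocount the ratio of Bhlhe41 was -1.11 and that of Bhlhe40 -0.92, a difference of -0.18 (counting interval -0.57 to 0.20), so the paralogs were not told apart. Gm43909 overlaps Bhlhe41 on the opposite strand in the GRCm38 annotation, is 100% identical to 443 bases of it and could share its reads.

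Cd5, a scavenger-type receptor that dampens antigen receptor signals in B1a and T cells, was among the low genes. Its level was 0.164 RPKM with Nedd4 (0.0897 to 0.274) and 0.299 RPKM without (0.179 to 0.467), which rest on 14.1 and 18.8 read pairs. The 5490 genes with a mean of 0.2 to 0.5 RPKM had median levels of 0.203 and 0.362 RPKM, and 89.3% of them were higher in the Nedd4-/- library. The difference of Cd5, 0.135 RPKM, was no larger than their median difference of 0.156 RPKM. Cd6, the neighbouring and related receptor gene, was also low, at 0.162 and 0.465 RPKM. Its log2 ratio without pseudocount was 1.52 (counting interval 0.73 to 2.36), and that of Cd5 was 0.87 (-0.21 to 1.98). The ratio of Cd5 was not told apart from that of Cd6 (difference -0.66, counting interval -1.91 to 0.60).

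In order of level the markers ran Cd24a, Plac8, Cd36, Notch2, Cd38, Bhlhe41, Cd9, Dtx1, S1pr3 and Cd5 in the Nedd4+/+ library. Neighbours in that order were separated by their counting intervals except Cd38 with Bhlhe41 and Bhlhe41 with Cd9. In the Nedd4-/- library the first 4 and the last stood in the same places, and Bhlhe41, Cd9, S1pr3, Cd38 and Dtx1 followed Notch2. There Bhlhe41 with Cd9, Cd9 with S1pr3 and Cd38 with Dtx1 were not separated. In order of ratio, Cd38 was separated from Cd24a, the run from Cd24a over Dtx1, Bhlhe41, Cd36 and Cd9 to Plac8 held no separated neighbours, and Notch2 was separated from Plac8 on its lower and S1pr3 on its upper side.

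**Figure D3:**
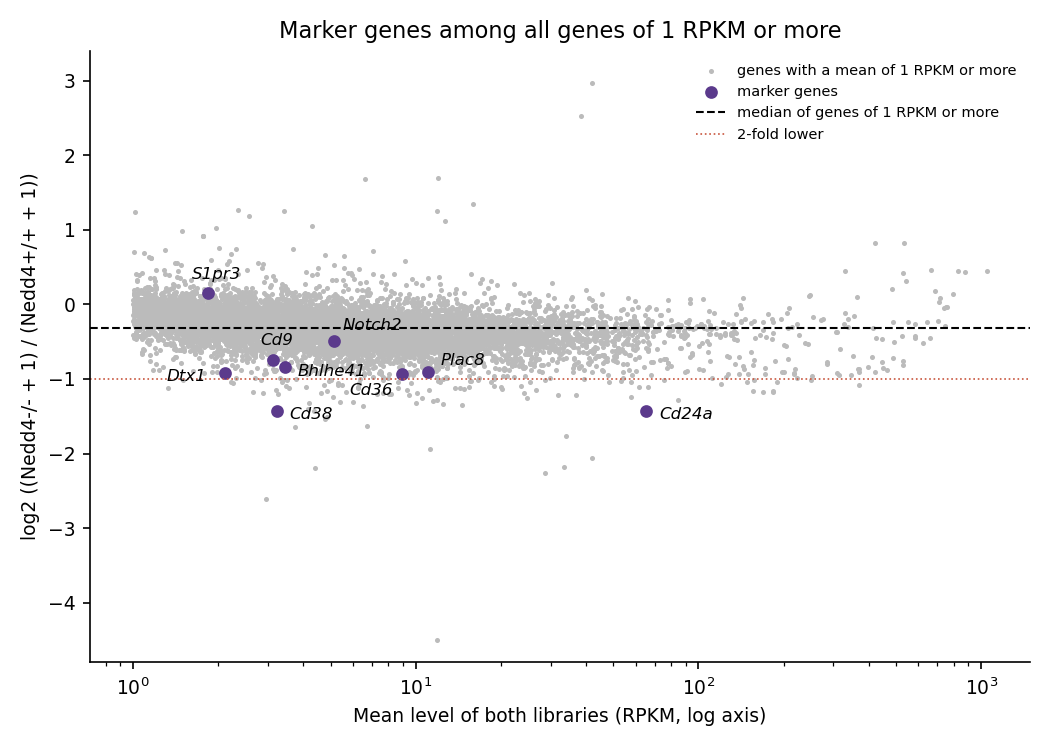
Log2((Nedd4-/- + 1)/(Nedd4+/+ + 1)) (vertical axis) against the mean level of both libraries in RPKM (horizontal log axis) for 9405 genes (grey) and the 9 marker genes among them (purple). Cd38 and Cd24a lie under the dotted 2-fold line, 6 more markers lie between that line and the dashed median, and S1pr3 lies above the median.

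Further genes known from the same subsets lay on both sides of the median. Of 8 further marginal zone genes at 1 RPKM 4 lay below and 4 above the median of all genes, and their median log2 ratio was -0.33. Fcrl5, an Fc receptor-like protein of marginal zone and B1 cells, was at 8.09 and 2.66 RPKM (-1.31) and Tm6sf1 at 5.92 and 3.02 RPKM (-0.78), while S1pr1 (-0.04) and Slc43a2 (0.00, at 1.57 RPKM in both) were above. Of 10 further B1 genes 6 lay below, with a median of -0.58. Zbtb32, a repressor of secondary responses, was at 20.9 and 11.7 RPKM (-0.79), the phosphatase gene Ptpn22 at -0.79 and Arid3a, a transcription factor of B1 development, at -0.74. Ahr, the aryl hydrocarbon receptor, was at 1.47 and 2.96 RPKM, a log2 ratio of 0.68 and a relative value of 0.99.

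Genes of the follicular subset, the alternative fate to the marginal zone, differed both ways. Of 10 such genes 4 lay below and 6 above the median of all genes, with a median log2 ratio of -0.19. Fcer2a, which encodes CD23, the usual surface marker of follicular cells, was at 11.0 and 13.5 RPKM (0.27, relative 0.58). Satb1, a chromatin organiser, was by contrast at 17.3 and 6.52 RPKM (-1.28) and Cxcr5, the receptor for the chemokine of the follicle, at 21.4 and 9.93 RPKM (-1.03). In all, 3 of the 10 passed the 2-fold rule, which 1.15% of all genes did. All 3 transitional genes at 1 RPKM, Cd93, Vpreb3 and Tnfrsf13c, lay below the median, between -0.71 and -0.62. Of 10 pan-B cell genes 5 lay below and 5 above, with a median of -0.33.

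**Figure D4:**
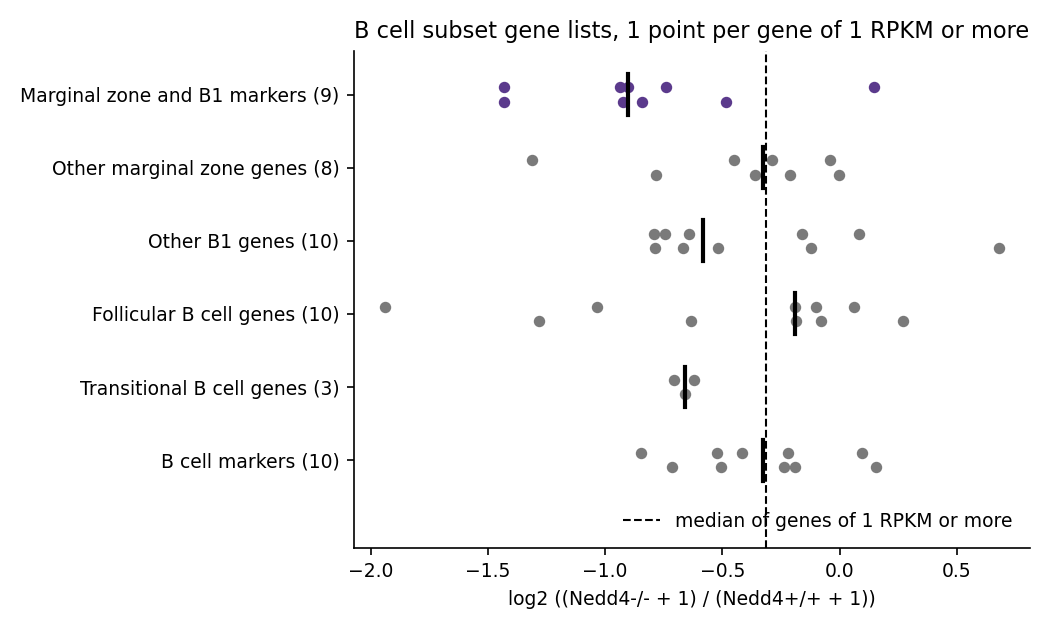
Log2((Nedd4-/- + 1)/(Nedd4+/+ + 1)) of each gene averaging 1 RPKM or above (points, horizontal axis) in 6 gene lists (vertical axis, number of genes in brackets), with list medians as black bars and the median of all genes dashed. The bar of the marker genes is at -0.90, that of other marginal zone genes at -0.33 and that of follicular genes at -0.19.

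Several of the markers are also made by other blood cells, and most but not all markers of those cells had a mean under 1 RPKM. Of 12 T cell markers 11 had a mean under 1 RPKM, and their summed level was 3.12 RPKM with Nedd4 and 4.72 RPKM without. All 13 myeloid markers measured had a mean under 1 RPKM, with sums of 2.61 and 4.97 RPKM. Of 13 erythroid and platelet markers 11 did, with sums of 7.23 and 6.22 RPKM, where Cd36 alone was at 12.0 and 5.80 RPKM. None of these markers was listed at 0 in either library. Genes under 0.5 RPKM as a whole were also higher without Nedd4, with medians of 0.117 RPKM with Nedd4 and 0.244 RPKM without. The higher sums of the T cell and myeloid markers are therefore not particular to those markers. Of 8 dendritic cell markers 3 reached 1 RPKM, led by Bst2 at 21.6 and 13.7 RPKM, a gene that activated B cells also make. The others were Flt3 at 2.14 and 1.03 RPKM and Zbtb46 at 1.62 and 1.58 RPKM. The part of such cells in the values of Cd36, Cd9, Plac8 and Cd5 was not tested.

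The labels were checked on Nedd4 itself, at 7.59 RPKM in the library labelled Nedd4+/+ and 1.95 RPKM in the other (-1.54). The labels do not say which part of the gene was altered. The libraries held 8.40 and 6.17 gigabases of reads. They also differed in Xist, the RNA of the inactive X chromosome, at 23.7 and 0.0958 RPKM, while the Y-linked gene Ddx3y was at 2.63 and 10.6 RPKM. The Nedd4+/+ library thus held both RNAs, and the Nedd4-/- library held Ddx3y with almost no Xist. Whether cells of both sexes were mixed was not tested. The sex of the donors cannot be told apart from the genotype in any value here. Xist and Ddx3y were picked with their values known.

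The kb upstream of each gene was also measured, and the windows of the markers held few reads. Levels of these windows are in RPKM, and their log2 ratios have 0.1 RPKM added. Of the 10 windows 5 had a mean of 0.2 RPKM or more. Of these, 1, that of Cd9, was higher by 2-fold or more without Nedd4, while 19.8% of all 11837 windows of that level were, and 0 were 2-fold lower (0.794%). The window of Cd9 was at 0.0735 RPKM with Nedd4 and 0.342 RPKM without, on 3.05 and 10.5 read pairs, which is 1.35 in log2. Without the added 0.1 RPKM its log2 ratio had a counting interval of 0.29 to 4.68. The noncoding gene Gm26728 runs from inside Cd9 through this window on the opposite strand in the GRCm38 annotation, and with the strand setting not given its reads and those of Cd9 cannot be told apart. The window of Bhlhe41 was the highest, at 0.721 and 0.809 RPKM (0.15), and that of Cd24a was at 0.433 and 0.371 RPKM (-0.18). Over all windows the median log2 ratio was 0.41, against -0.31 over genes.

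**Figure D5:**
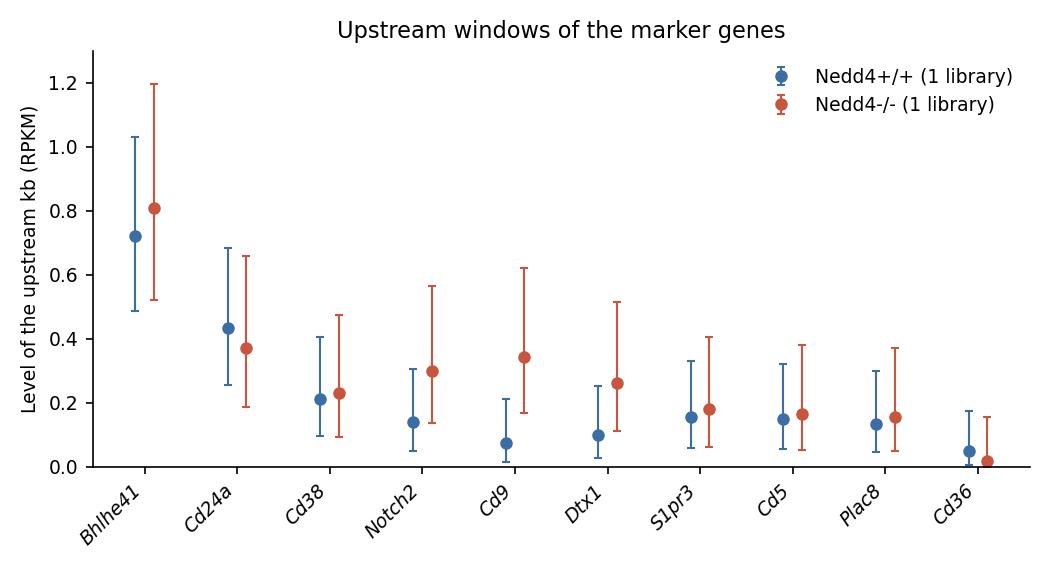
Level of the kb upstream of each marker gene in RPKM (vertical axis) in the Nedd4+/+ (blue) and Nedd4-/- library (red), with 95% counting intervals. The intervals of the libraries overlap for every gene, and Bhlhe41 and Cd24a are highest.

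The sequence before the start was taken from RefSeq (GRCm38.p6), which held promoters for 9 of the 10 genes. The deposited values rest on mm9, so the positions below do not apply to them. Shown are Notch2 as the receptor that sets the fate, S1pr3 as the marker that was higher, Cd9 as the gene whose window passed the rule and Bhlhe41 as the gene with the highest window. Each stretch runs 5′ to 3′ on the gene's strand within the 250 bases before the RefSeq start, without bases that GENCODE counts to the gene. Capitals mark TGGGAA, the core of the RBPJ motif, or its reverse TTCCCA, and CACGTG, the E-box that factors of the Bhlhe41 family bind. No matches of these motifs overlapped each other. The stretch of Notch2 is chr3:98013288-98013526 (plus strand), that of S1pr3 chr13:51408368-51408617 (plus), that of Cd9 chr6:125494792-125495010 (minus) and that of Bhlhe41 chr6:145865559-145865670 (minus).
Notch2: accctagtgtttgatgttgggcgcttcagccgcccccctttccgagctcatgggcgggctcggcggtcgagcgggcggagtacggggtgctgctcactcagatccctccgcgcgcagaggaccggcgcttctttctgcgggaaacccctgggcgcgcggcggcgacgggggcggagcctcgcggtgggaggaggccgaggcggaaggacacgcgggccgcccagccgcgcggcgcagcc
S1pr3: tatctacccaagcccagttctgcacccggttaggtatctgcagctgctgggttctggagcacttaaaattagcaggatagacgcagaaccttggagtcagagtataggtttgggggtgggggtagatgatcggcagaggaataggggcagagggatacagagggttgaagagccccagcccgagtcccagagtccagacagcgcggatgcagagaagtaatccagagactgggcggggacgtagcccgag
Cd9: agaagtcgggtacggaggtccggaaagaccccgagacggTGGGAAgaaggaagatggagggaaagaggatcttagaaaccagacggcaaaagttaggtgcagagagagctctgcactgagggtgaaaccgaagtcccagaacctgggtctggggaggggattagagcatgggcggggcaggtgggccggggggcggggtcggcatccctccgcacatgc
Bhlhe41: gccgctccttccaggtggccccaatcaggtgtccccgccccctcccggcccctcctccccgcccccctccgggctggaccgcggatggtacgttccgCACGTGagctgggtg

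Over the full 250 bases TGGGAA was found on either strand in 4 of 10 promoters of the markers, those of Cd36, Cd38, Cd5 and Cd9, and in 21.6% of all 32851 promoters. It was not among the letters of this window in Notch2, Dtx1, Bhlhe41, S1pr3 or either Plac8 promoter. The E-box was in 1, that of Bhlhe41, 153 bases before the start, and in 6.02% of all promoters. The promoters of Bhlhe41 and Notch2 were the richest in G and C, at 73.6% and 72.0% with 31 and 34 CG pairs, and that of Cd36 the poorest, at 43.2% with 3, where the median of all promoters was 52.4%. Notch2 and Bhlhe41 had log2 ratios of -0.49 and -0.84 and Cd36 one of -0.94. The gene with the E-box, Bhlhe41, and those with TGGGAA at 1 RPKM or more, Cd36, Cd38 and Cd9, were lower. Of the markers with neither motif Notch2, Dtx1 and Plac8 were lower and S1pr3 was higher.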

How the data were processed

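RNA depleted of ribosomal RNA was sequenced in 1 library per genotype. Per the submitters' processing notes the tools were TopHat and Cufflinks and the build mm9, with no version or role. Strand setting and treatment of reads with several matches: not given in the sources used here. Gene levels were deposited as RPKM, each under 1 RefSeq transcript, per the file headers. The second deposited column is a ratio, the level of the upstream kb over the gene's RPKM plus 0.0001. Multiplied back, it gave whole read bases, within 0.05 bases, in 99.99% and 100% of the 20097 and 20742 windows checked, which also gave the depth.

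Read pairs were the recovered bases over 2 reads of 101 nt, with GENCODE M21 transcript lengths (97.1% of genes matched). Ratios of levels have Clopper-Pearson 95% intervals on those pairs and levels have Poisson intervals. Both are exact for whole counts only, which the estimated pairs need not be. Differences between ratios of genes have approximate intervals on log counts. A pseudocount of 1 RPKM and a minimum mean of 1 RPKM were used for genes, and 0.1 and 0.2 RPKM for windows. No p-value was computed. Python 3.11.15, SciPy 1.17.1, pandas 2.3.3 and BLAST+ 2.17.0 (near copies: 90% identity over 200 bases or more) were used, and the scripts were tested on simulated data.

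The markers and the 17 other gene lists were chosen with earlier results of these data known. Named are the markers, Nedd4 and, per list, up to 4 genes with the largest absolute relative log2 ratio at 1 RPKM or more, of which the text gives part, since some genes are not reported here. Near relatives of a marker, the Notch target genes under 1 RPKM, Xist and Ddx3y were named after their values were seen. No protein sequences were analysed here. Mzb1, Ighd, Siglec10, Ly6g and Adgre1 were not matched by symbol and are not analysed here. Alternatives were other pseudocounts and minimum levels, scaling to the median or to the summed RPKM, and subtraction of the median low level.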

Additional observations from a re-analysis of the deposited data

How the results depend on the processing

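The 9 markers at 1 RPKM or more kept the sign of their log2 ratio, but few alternatives could change it. Values relative to the median and shares of the summed RPKM raise the ratios, so they could turn only the 8 lower markers. Subtraction of the median low level, chosen after seeing the data, lowers the ratios and could turn only S1pr3. Another pseudocount or minimum level cannot change the sign of a ratio. Over all alternatives the ratios of Cd24a and Cd38 stayed between -1.46 and -1.08 and between -2.00 and -1.12, and that of S1pr3 between 0.09 and 0.46. The median of the markers was -0.59 relative to the median of all genes and -0.57 on shares of the summed RPKM. The number at least 2-fold lower was 5 with a pseudocount of 0.1 RPKM (2.43% of all genes), 5 with none, also chosen after seeing the data (2.79%), and 1 with a minimum mean of 5 RPKM (1.68%), which only 4 markers reach. With the low level subtracted it was 3 (1.48%). As reported it was 2 (1.15%), so the share over all genes moved with the setting too. The number at least 1.5-fold lower relative to the median was 5 as reported, where Plac8 passed only narrowly (relative -0.590). It was 6 with a pseudocount of 0.1 RPKM, 7 of 10 without a minimum level and 4 with the low level subtracted. With the minimum mean of 5 RPKM it was 1, and all 4 markers lay below the median. For this count the share over all genes was not computed under these alternatives. Of 10 other lists with 5 or more genes, 7 had a median below that of all genes. Without a minimum level, where the median of all genes was 0.02, 11 of 17 did, and 4 of 6 did at 5 RPKM. The count of 1 upstream window was 0 with 0.5 RPKM added, where 0.321% of all windows passed, and 0 relative to the median of all windows, where 6.50% did. No marker window reached a mean of 1 RPKM.

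Depth limits Cd5 and the windows, which rest on few read pairs. No paired analysis was possible because each genotype has 1 library and the labels carry no replicate numbers.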

Other observations

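RNA levels of genes whose proteins work with the surface markers differed unevenly. Cd72, an inhibitory receptor of B cells, was at 5.12 RPKM with Nedd4 and 9.04 RPKM without (0.71, relative 1.03). Lyn, the kinase that phosphorylates CD5 and the inhibitory receptors, was at 13.2 and 6.39 RPKM (-0.94, relative -0.63). Ptpn6, the phosphatase that those receptors recruit, was at 42.1 and 29.1 RPKM (-0.52), and Cd47, a ligand that limits phagocytosis, at 47.6 and 32.2 RPKM (-0.55). Of 8 such genes at 1 RPKM 5 were below the all-gene median, and 1 each, Cd72 and Lyn, was at least 1.5-fold higher or lower relative to it, where 1.23% and 2.05% of all genes were.

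Among marker lists of cell types, members differed from each other as well. Flt3, a growth factor receptor of early progenitors and dendritic cells, was at 2.14 and 1.03 RPKM (-0.63). Cd22, the sialic acid receptor that dampens antigen receptor signals, was at 49.1 and 26.8 RPKM (-0.85, relative -0.53), while Cd79a, a signalling chain of the antigen receptor, was at 13.9 and 15.6 RPKM (0.15).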
